A study of Mus musculus with 20 samples.

Results

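The BATF and IRF transcription factor genes Batf, Batf2, Batf3, Irf4, Irf8 and Irf2 were followed by bulk RNA-seq through mouse TCRαβ+CD8αα+ intraepithelial lymphocytes (IELs), T cells that live between the epithelial cells of the small intestine. The genes were chosen by name, 6 of the 25933 genes listed in any table. All 6 had a row in the Prdm1 and Tcf7 tables, and 5 in the other tables, where Batf2 was not listed. Libraries came from sorted cells of Bcl6-RFP/RFP mice, whose Bcl6 locus drives a red fluorescent protein (RFP). Cells positive for RFP and for the surface receptor CD160 gave 3 libraries (RFP+CD160+), and cells negative for both gave 3 (RFP-CD160-). The knockout libraries came from all CD8αα+ TCRαβ IELs of Bcl6fl/fl Cd8cre, Prdm1fl/fl Cd8cre or Tcf7fl/fl Cd8cre mice, 2 libraries each, against 2 libraries each of Bcl6fl/fl, Prdm1fl/fl or Tcf7fl/fl littermates. In every deletion the Cre recombinase ran from Cd8 sequences and no littermate genotype names it, so Cd8cre itself and loss of the gene cannot be told apart. A further 2 libraries are titled only LI; their labels give small intestine and Bcl6-RFP/RFP and no sort, and they belong to no group here. The labels give neither age nor sex, nor whether replicates were separate animals, so p-values measure the spread between these libraries, which may be technical.

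BATF proteins are short basic leucine zipper factors of the AP-1 family that lack a transactivation domain of their own. They pair with JUN proteins, compete with FOS for them, and recruit IRF4 or IRF8 to composite DNA elements. In T cells BATF and IRF4 are induced by T cell receptor signals and drive effector differentiation, BATF3 is best known for the development of cross-presenting dendritic cells and also supports CD8 T cell memory, and IRF2 competes with the activator IRF1 at interferon response elements. BCL6 and BLIMP1, the product of Prdm1, are repressors that oppose each other in lymphocyte differentiation, and TCF1, the product of Tcf7, maintains stem-like T cells.

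Values of the sorted, LI and Bcl6 libraries are FPKM, reads scaled to gene length and library depth, and those of the Prdm1 and Tcf7 libraries are reads divided by 1 size factor per library (scaled reads), which do not allow for gene length. Read totals recovered from the values, divided by 1000000, were 14.5 to 16.9 in RFP+CD160+ and 16.5 to 17.3 in RFP-CD160- libraries, 22.1 to 23.0 in the Bcl6, 30.1 to 38.4 in the Prdm1 and 41.0 to 48.2 in the Tcf7 experiment. Prdm1 fell to 640 and 362 scaled reads in Prdm1 knockout libraries, against 6092 and 5117 in littermates, and Tcf7 to 7757 and 7993 in Tcf7 knockout libraries, against 15430 and 15606. Bcl6 gave a weak check of its own knockout, at 0.550 and 0.638 FPKM with the deletion against 0.772 and 0.735 FPKM in littermates. Cd8a averaged 574 FPKM in RFP+CD160+ and 913 FPKM in RFP-CD160- cells, while Cd8b1, which CD8αα cells lack, averaged 0.935 and 1.04 FPKM. The T cell receptor constant genes were not analysed here. Granzymes Gzma and Gzmb took 0.0793 to 0.180% of all FPKM in RFP+CD160+ libraries and 7.32 to 8.27% in RFP-CD160- libraries, and FPKM are shares of a total that includes them.

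Batf3 set the sorted populations apart more than any other member. It stood at 16.6, 13.4 and 15.2 FPKM in RFP+CD160+ libraries, against 0.872, 0.564 and 0.180 FPKM in RFP-CD160- libraries. Every RFP+CD160+ library was far above every RFP-CD160- library, whose values rest on 23, 15 and 5 reads. The means were 15.1 ± 1.56 and 0.539 ± 0.347 FPKM (SD, n = 3 each), a 28-fold ratio. On the log2(value + 1) scale used for all fold changes here, which understates changes of low genes, the difference was 3.41 ± 0.16 (SE). That is rank 4 from the highest of 9717 tested genes. With a pseudocount of 0.1 FPKM in place of 1 it was 4.74. Because the members were chosen with this comparison known, their values in it are a description and carry no test, and bulk RNA cannot tell fewer expressing cells from less RNA per cell.

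Batf, the founding member, was at a similar level in both populations. Its values were 16.7, 16.7 and 19.1 FPKM in RFP+CD160+ libraries and 21.4, 18.7 and 20.8 FPKM in RFP-CD160- libraries. The groups overlapped, and the log2 difference was -0.20 ± 0.07, or -0.051 once library totals were rescaled. FPKM being per gene length, Batf3 and Batf stood at about the same level in RFP+CD160+ cells, whereas in RFP-CD160- cells Batf was nearly alone.

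Irf8, which encodes an IRF that binds DNA mainly with ETS and BATF partners, ran opposite to Batf3. Its values were 13.3, 15.6 and 15.3 FPKM in RFP+CD160+ libraries, against 26.6, 26.8 and 25.7 FPKM in RFP-CD160- libraries. The groups lay apart, at 14.7 ± 1.30 and 26.4 ± 0.565 FPKM (SD, n = 3 each), a ratio of 0.559 and a log2 difference of -0.80 ± 0.07. Irf4, the closest relative of Irf8, was low and overlapped between the populations, at 1.29, 2.10 and 2.10 FPKM in RFP+CD160+ libraries and 2.20, 0.893 and 1.71 FPKM in RFP-CD160- libraries. Its log2 difference was 0.14 ± 0.20, and it was -0.071 without the second RFP-CD160- library. Irf2 also overlapped, at 17.4, 16.2 and 18.2 FPKM in RFP+CD160+ libraries and 19.5, 18.6 and 17.8 FPKM in RFP-CD160- libraries, with a log2 difference of -0.10 ± 0.06. That difference was 0.048 once library totals were rescaled. In all, 2 of the 5 listed members had groups that did not overlap, against 51.9% of all tested genes, and nothing is read from that count.

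**Figure D1:**
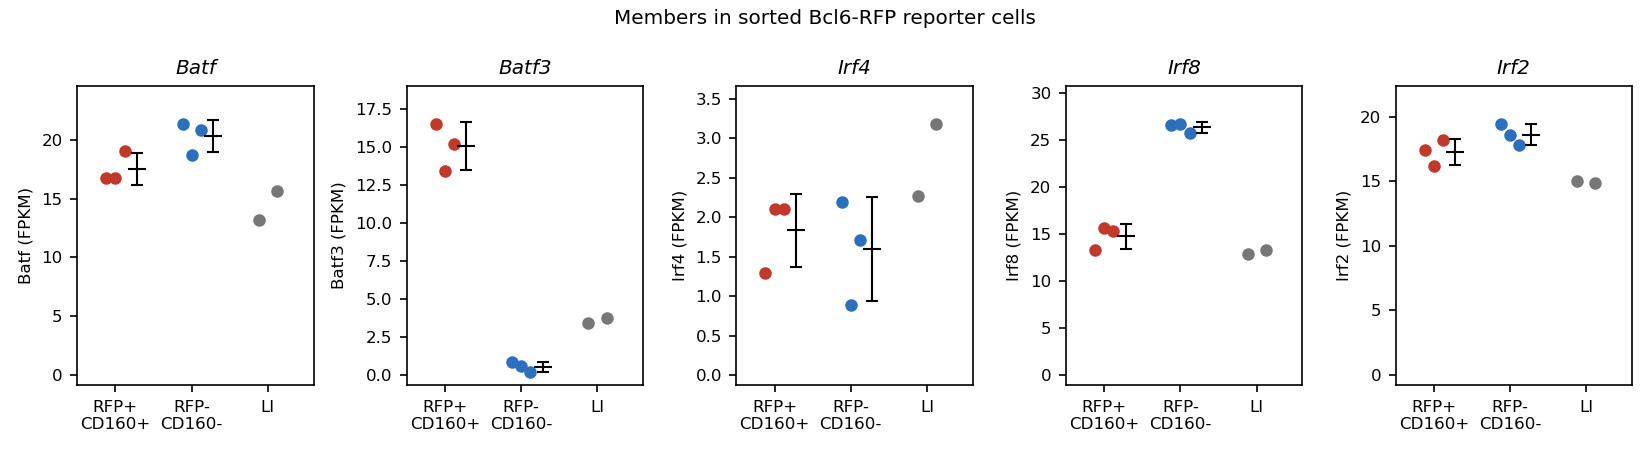
FPKM of 5 members in each RFP+CD160+, RFP-CD160- and LI library (points), with the mean and SD of the sorted groups (bars) beside them; each panel has its own axis. Batf3 is high only in the RFP+CD160+ points among the sorted libraries, Irf8 is higher in the RFP-CD160- points, and the other members overlap.

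The LI libraries lay between the sorted populations for Batf3, at 3.42 and 3.78 FPKM. Their Irf8 values of 12.9 and 13.3 FPKM reached into the RFP+CD160+ range and stayed below all RFP-CD160- libraries. Irf4, at 2.28 and 3.19 FPKM, was above all 6 sorted libraries. Batf, at 13.1 and 15.6 FPKM, and Irf2, at 15.0 and 14.9 FPKM, were below all of them. Their read totals, divided by 1000000, were 30.0 and 22.5, and with no group in the labels they entered no test.

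The stretches just before the RefSeq starts of Batf3, Irf4 and Irf8 (GRCm38.p6) are shown. These genes were taken because Batf3 passed the test after loss of Prdm1 and Irf8 after loss of Tcf7. Irf4 was taken because it had the largest member difference after loss of Bcl6. Each stretch begins 250 bases before the start and ends before the first base that GENCODE vM21 marks as untranslated exon. Capitals mark matches, on either strand, to GNGAAAG (a core letter pattern of BLIMP1), TTCNNNGAA (a palindrome bound by STAT factors, which BCL6 sites resemble), CTTTGA (TCF1), TGANTCA (AP-1) or the interferon response element, GAAA and GAAA with a pair of any bases between them.
Batf3 chr1:191098164-191098324 (plus strand): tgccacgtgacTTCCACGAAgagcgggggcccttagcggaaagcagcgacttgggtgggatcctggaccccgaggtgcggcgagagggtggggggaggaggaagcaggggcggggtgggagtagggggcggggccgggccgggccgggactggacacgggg
Irf4 chr13:30748983-30749225 (plus strand): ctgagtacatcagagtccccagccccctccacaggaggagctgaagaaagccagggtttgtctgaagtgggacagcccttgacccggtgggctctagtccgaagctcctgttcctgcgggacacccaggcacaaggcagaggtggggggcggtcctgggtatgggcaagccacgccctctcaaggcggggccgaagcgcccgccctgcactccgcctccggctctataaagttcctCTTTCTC
Irf8 chr8:120736108-120736357 (plus strand): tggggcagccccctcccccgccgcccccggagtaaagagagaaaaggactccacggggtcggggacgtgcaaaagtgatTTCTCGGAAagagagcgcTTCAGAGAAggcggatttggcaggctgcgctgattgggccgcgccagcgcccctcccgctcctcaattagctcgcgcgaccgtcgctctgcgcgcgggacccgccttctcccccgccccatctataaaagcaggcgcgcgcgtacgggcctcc
Batf3 held 1 match, TTCCACGAA, from 239 to 231 bases before the start. A noncoding Batf3 transcript of GENCODE also runs through that stretch. Irf4 held CTTTCTC, the BLIMP1 pattern read on the other strand, from 14 to 8 bases before the start. Irf8 held 2 copies of the palindrome, TTCTCGGAA from 171 to 163 and TTCAGAGAA from 153 to 145 bases before it. The 250 bases of Batf held the BLIMP1 pattern once (CTTTCAC), and those of Irf2 held an interferon response element (GAAAATGAAA) and a palindrome (TTCCGAGAA). Of 32851 mouse promoter stretches of the same length, 19.4% held the BLIMP1 pattern, 7.02% the palindrome, 13.8% the TCF1 pattern, 6.75% the AP-1 site and 2.98% the interferon element. These are matches of letters and not sites shown to be bound.

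After loss of Bcl6, Irf4 had the largest difference of the 5 listed members, and none passed the test. Irf4 was lower in both knockout libraries, with 1.74 and 2.17 FPKM there and 5.26 and 5.14 FPKM in littermates. The groups lay well apart, at 1.96 ± 0.309 and 5.20 ± 0.0805 FPKM (SD, n = 2 each), on 192 and 242 reads in knockout and 593 and 557 reads in littermate libraries. The log2 difference of -1.07 ± 0.19 was rank 47 from the lowest of 9573 tested genes and missed the threshold of 0.05 with a limma p of 0.0622 after Benjamini-Hochberg adjustment over all tested genes. Leaving out the first or the second knockout library put it past the threshold (limma adjusted p = 2.91e-04 and 1.87e-05), and leaving out the first or the second littermate library did not (limma adjusted p = 0.275 and 0.191). The count of members called by limma was 0 of 5, where it called 0.418% of all tested genes; at an unadjusted p below 0.05, as for 5.84% of all tested genes, Irf4 passed alone. Which knockout values entered the choice of the genes is not recorded, so the adjusted p-values of all 3 knockouts describe these libraries and are not independent evidence.

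The other members differed less in the Bcl6 experiment. Batf3 had 9.00 and 6.81 FPKM in knockout libraries, against 7.08 and 8.26 FPKM in littermates, with the groups overlapping (log2 difference 0.03 ± 0.20, limma adjusted p = 0.986). Batf had 74.1 and 64.3 FPKM in knockout and 75.1 and 83.0 FPKM in littermate libraries (log2 difference -0.19 ± 0.16, limma adjusted p = 0.949). Irf8 had 55.6 and 38.3 FPKM in knockout and 54.5 and 60.2 FPKM in littermate libraries. Its groups overlapped through the first knockout library, and the log2 difference of -0.30 ± 0.20 (limma adjusted p = 0.949) became -0.57 without that library (limma adjusted p = 0.00307) and -0.041 without the second knockout library (limma adjusted p = 0.986). Irf2 had 14.0 and 17.0 FPKM in knockout and 12.9 and 13.5 FPKM in littermate libraries, a log2 difference of 0.21 ± 0.17 (limma adjusted p = 0.949). Groups did not overlap for 3 of the 5 members (Batf, Irf4 and Irf2), against 33% of all tested genes. Macrophage markers summed to 10.2 to 43.3 FPKM in knockout and 7.34 to 11.9 FPKM in littermate libraries, which overlapped. Dendritic cell markers summed to 46.4 to 51.3 FPKM in knockout and 38.6 to 45.5 FPKM in littermate libraries. B and plasma cell and epithelial marker sums overlapped. The part of these cell types in the Bcl6 experiment was not tested.

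After loss of Prdm1, Batf3 rose, as 1 of 5 tested members to pass the threshold. Batf3 had 1228 and 1602 scaled reads in Prdm1 knockout libraries, against 84.8 and 335 scaled reads in littermates. Both knockout libraries exceeded both littermate libraries, although the littermates themselves differed several fold. The means were 1415 ± 264 and 210 ± 177 scaled reads (SD, n = 2 each), a 6.74-fold ratio, and the log2 difference was 3.05 ± 0.56 (limma adjusted p = 0.0258). This was rank 14 from the highest of 10969 tested genes, in a comparison in which limma called 6.84% of them. The difference was 2.06 without the first littermate library and 4.03 without the second. Each of those fits kept 1 littermate library, so the spread between littermates did not enter it and its p-value cannot weigh that spread. The second littermate library also had more Tcf7 (12467 scaled reads, against 6605 in the first) and more Cd160 (12267 against 6555), and the part of such a difference between littermates in the result was not tested.

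**Figure D2:**
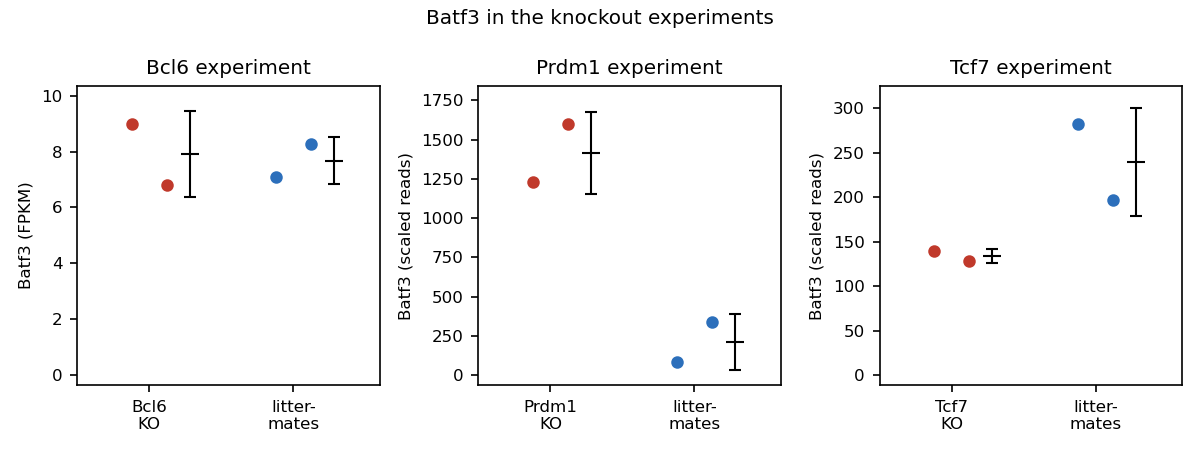
Batf3 in every knockout and littermate library (points) with the mean and SD of each group (bars), in FPKM for the Bcl6 experiment and scaled reads for the Prdm1 and Tcf7 experiments. Batf3 is 6.74-fold higher in Prdm1 knockout libraries, lower in both Tcf7 knockout libraries than in both littermates, and overlapping in the Bcl6 experiment.

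Batf3 is a defining gene of cross-presenting dendritic cells, so the markers of those cells are set beside it. Xcr1, their chemokine receptor, averaged 13.2 ± 11.3 scaled reads in Prdm1 knockout libraries and 59.0 ± 19.1 in littermates (SD, n = 2 each), and 0.159 ± 0.105 FPKM in RFP+CD160+ and 0.546 ± 0.0439 FPKM in RFP-CD160- cells (SD, n = 3 each). It was below the filter, so without a test, and in both comparisons its mean was lower where that of Batf3 was higher. Clec9a was not analysed here. Siglech, a marker of plasmacytoid dendritic cells, had 31.8 and 2.08 scaled reads in Prdm1 knockout libraries and was at 0 in both littermate libraries. The summed level of the listed dendritic cell markers, 9 of 10 in the Prdm1 table, was 7231 to 7850 scaled reads in knockout libraries and 10523 to 12604 in littermates. In the sorted comparison 8 of 10 were listed and the sums were 17.9 to 25.1 FPKM in RFP+CD160+ and 41.9 to 57.5 FPKM in RFP-CD160- libraries. Itgax, which IELs also express, averaged 5902 ± 132 scaled reads in Prdm1 knockout and 10785 ± 1680 in littermate libraries (SD, n = 2 each; limma adjusted p = 0.0139), most of those sums. Within the list, the class II genes H2-Aa (289 ± 10.6 against 101 ± 17.6 scaled reads, limma adjusted p = 0.0141) and H2-Eb1 (332 ± 30.5 against 156 ± 26.6, limma adjusted p = 0.0299) rose in Prdm1 knockout libraries (n = 2 each). Of the 6 tested genes of the list 2 were thus called higher and 1 lower, where limma called 6.84% of all tested genes. The list median was 0.96, beside -0.04 for all tested genes, so the lower sum is not shared by the list as a whole. In the sorted comparison the median of 4 tested genes was -0.09, beside -0.03, and Itgax, lower, was the only call. The part of dendritic cells in the Batf3 result was not tested.

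The remaining members did not pass after loss of Prdm1. Batf had 641 and 817 scaled reads in knockout and 852 and 891 in littermate libraries (log2 difference -0.27 ± 0.15, limma adjusted p = 0.373). Irf4 had 1041 and 556 scaled reads in knockout and 609 and 387 in littermate libraries, which overlapped (log2 difference 0.65 ± 0.33, limma adjusted p = 0.324). The Irf4 difference was 0.20 without the first knockout library and 1.10 without the second (limma adjusted p = 0.805 and 0.00527). The first knockout library also had the most Fosb, an immediate-early gene, at 27405 scaled reads beside 17673 in the second knockout library and 13314 and 10090 in littermates; its part was not tested. Irf8 had 4979 and 4568 scaled reads in knockout and 5547 and 5898 in littermate libraries, a log2 difference of -0.26 ± 0.10 (limma adjusted p = 0.195). Irf2 had 6166 and 5456 in knockout and 7072 and 6606 in littermate libraries, a log2 difference of -0.24 ± 0.11 (limma adjusted p = 0.270). Batf2, known in macrophages for its induction by interferon, was near the floor and below the filter, with 10 and 13 reads in knockout and 0 and 5 reads in littermate libraries. Groups did not overlap for 4 of the 5 tested members, against 52.4% of all tested genes.

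After loss of Tcf7, Irf8 rose by a small step that was alike in both knockout libraries. Irf8 had 8441 and 8365 scaled reads in Tcf7 knockout libraries, against 7076 and 7001 in littermates. The means were 8403 ± 53.4 and 7039 ± 52.5 scaled reads (SD, n = 2 each), a 1.19-fold ratio, and the gap between the groups was many times the gap between replicates. The log2 difference was 0.26 ± 0.05, rank 1241 from the highest of 15210 tested genes. It was the only call among the 5 tested members (limma adjusted p = 0.0123), where limma called 2.72% of all tested genes. It missed the threshold without the first knockout library (limma adjusted p = 0.148) or the second (limma adjusted p = 0.0961), at nearly the same size. Marker sums of other cell types were also higher in Tcf7 knockout libraries, without overlap. Macrophage markers were at 212 to 229 scaled reads, against 137 to 156 in littermates. B and plasma cell markers were at 1332 to 1335, against 1104 to 1191, and epithelial markers at 25548 to 25755, against 22650 to 22719. Of 6 markers of other T cells only Cd8b1 and Cd4 were listed, and these 2 summed to 313 to 358, against 147 to 270. Dendritic cell markers, with Itgax among them, summed to less, at 19285 to 19864 in knockout libraries and 20512 to 20756 in littermates. The median log2 difference of the 7 tested was -0.08, beside 0.002 for all tested genes, and the only limma call was Xcr1, higher. The part of these cell types in the Irf8 result was not tested.

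Batf3 was lower in both Tcf7 knockout libraries, at 139 and 128 scaled reads, than in both littermates, at 283 and 197. The means were 134 ± 8.15 and 240 ± 60.9 scaled reads (SD, n = 2 each), and the log2 difference of -0.82 ± 0.23, rank 135 from the lowest of 15210 genes, missed the threshold (limma adjusted p = 0.0933). It passed without the second littermate library (log2 difference -1.08, limma adjusted p = 0.00326) and was -0.56 without the first (limma adjusted p = 0.353). Without the first or the second knockout library it also missed the threshold (limma adjusted p = 0.207 and 0.314). Xcr1 ran the other way and was 100 ± 9.49 scaled reads in Tcf7 knockout libraries and 37.6 ± 6.12 in littermates (SD, n = 2 each; limma adjusted p = 0.0492). Batf had 1352 and 1267 scaled reads in knockout and 1132 and 1156 in littermate libraries (log2 difference 0.19 ± 0.09, limma adjusted p = 0.365). Irf4 overlapped, at 254 and 173 scaled reads in knockout and 197 and 213 in littermate libraries (log2 difference 0.03 ± 0.22, limma adjusted p = 0.970). Irf2 had 6449 and 6788 in knockout and 6244 and 6439 in littermate libraries (log2 difference 0.06 ± 0.05, limma adjusted p = 0.731). Batf2 stayed below the filter, with 23 and 6 reads in knockout and 10 and 14 in littermate libraries. Groups did not overlap for 4 of the 5 tested members, against 41.6% of all tested genes.

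**Figure D3:**
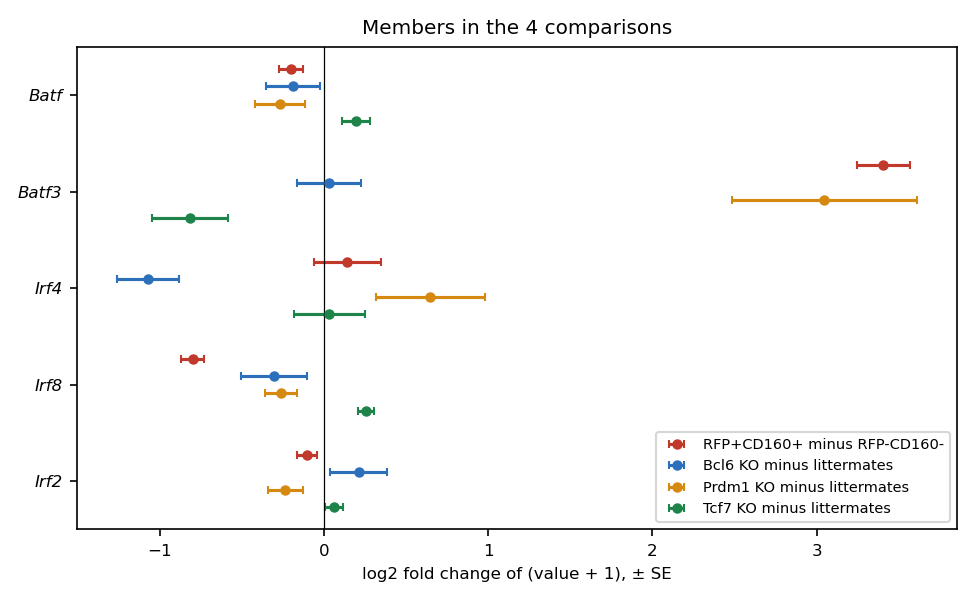
Log2 fold changes of value + 1 with their SE (bars) for 5 members in the sorted comparison and in each knockout against littermates. Batf3 is the only member beyond 3 on this axis, in the sorted comparison (3.41) and after loss of Prdm1 (3.05), and Irf4 stands alone at -1.07 after loss of Bcl6. The 1 is added to FPKM in the sorted and Bcl6 experiments and to scaled reads in the others, so sizes do not compare between these units.

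Batf3 and Batf share JUN partners, so their balance was taken per gene length in each library. Batf3 made up 46.2 ± 3.05% of Batf and Batf3 together in RFP+CD160+ libraries and 2.57 ± 1.56% in RFP-CD160- libraries (SD, n = 3 each). The LI libraries stood between, at 20.6 and 19.5%. Scaled reads were divided by the GENCODE exon length of each gene for the same purpose. The share was 62.8 and 63.3% in Prdm1 knockout libraries, against 8.06 and 24.9% in littermates, so that Batf3 exceeded Batf per length in both knockout libraries and in neither littermate. It was 10.2 ± 0.881% in Bcl6 knockout libraries and 8.83 ± 0.309% in their littermates, and 8.23 ± 0.115% in Tcf7 knockout libraries and 15.5 ± 3.54% in theirs (SD, n = 2 each). Irf4 and Irf8 share BATF partners in the same way, and Irf8 was the larger of the pair in every library. Irf4 made up 4.20 ± 1.66% of the pair in Bcl6 knockout libraries and 8.34 ± 0.661% in littermates, and 10.9 ± 1.77% in RFP+CD160+ and 5.70 ± 2.25% in RFP-CD160- libraries. The share was 19.0 ± 5.82% in Prdm1 knockout libraries and 11.1 ± 3.56% in littermates, and 3.52 ± 0.886% in Tcf7 knockout libraries and 4.02 ± 0.243% in littermates.

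**Figure D4:**
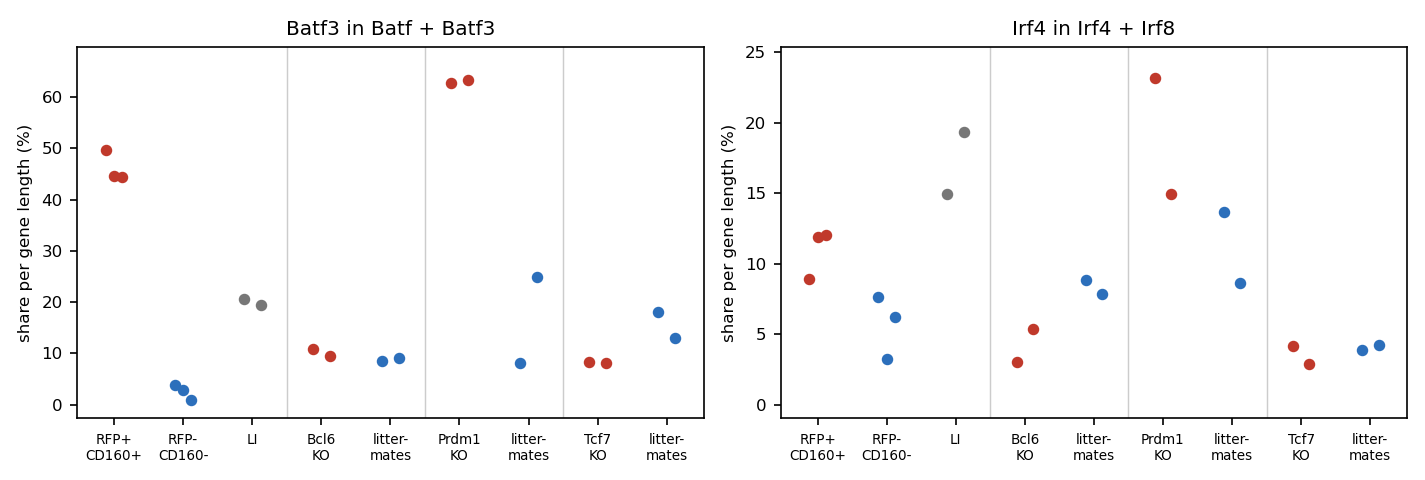
Share of Batf3 in the sum of Batf and Batf3, and of Irf4 in the sum of Irf4 and Irf8, per gene length and in percent, in every library (points). The Batf3 share is above 40% in the RFP+CD160+ and Prdm1 knockout libraries and below 30% in all others, and the Irf4 share is below 30% everywhere.

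The genes closest to each member in their log2 differences over the 4 comparisons, among 9030 genes tested in all, were found by Euclidean distance and are a description. These differences mix FPKM and scaled reads, and the added 1 shrinks those of genes with low FPKM most. Closest to Batf3 were Csf2, the cytokine GM-CSF (distance 1.5), Lrig1, a negative regulator of ErbB receptors (1.57), and Xcl1, the chemokine that attracts XCR1+ dendritic cells (1.71). Csf2 had 14.4, 18.5 and 7.69 FPKM in RFP+CD160+ libraries, against 0.227, 0.600 and 0.648 FPKM in RFP-CD160- libraries, and 356 and 479 scaled reads in Prdm1 knockout libraries, against 27.9 and 167 in littermates. Like Batf3, Csf2 was higher in the second Prdm1 littermate library than in the first. These genes lay apart from Batf3 in both the Bcl6 and the Prdm1 experiment. After loss of Bcl6, Csf2, Lrig1 and Xcl1 had log2 differences of -1.32, -0.88 and -0.75, against 0.03 for Batf3. After loss of Prdm1 they had 2.57, 1.92 and 1.64, against 3.05 for Batf3. These distances are large beside those of the other members. Among the closest to Irf4 were Nap1l5 (0.35) and Nfkbiz (0.45), an IκB protein of the nucleus, and closest to Irf8 were Insrr (0.19), Suox (0.22) and Rhoc (0.24). Batf had Txndc15, Smg8 and Zscan22 nearest, and Irf2 had Mmadhc, Slu7 and Nsd3, all at a distance below 0.1. Nfkbiz, like Irf4, was lower in both Bcl6 knockout libraries, at 19.5 and 16.2 FPKM against 32.4 and 31.6 FPKM in littermates.

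The lists of genes around the members were also written with earlier results of these data known. Their adjusted p-values in every comparison thus describe these libraries and are not independent evidence. Among the other interferon regulatory factors, 3 of 5 tested genes rose in RFP+CD160+ cells and none fell, where limma called 38% of all tested genes. Irf1, the activator that Irf2 opposes, averaged 88.7 ± 5.76 FPKM in RFP+CD160+ and 57.1 ± 5.88 FPKM in RFP-CD160- cells (SD, n = 3 each), a log2 difference of 0.63 ± 0.08 (limma adjusted p = 7.16e-04). Irf5 averaged 4.88 ± 0.617 and 3.22 ± 0.195 FPKM (n = 3 each; log2 difference 0.47, limma adjusted p = 0.00487). Irf9, a subunit of the interferon-activated ISGF3 complex, was close to the threshold (log2 difference 0.16, limma adjusted p = 0.0313) and missed it when any single library was left out (limma adjusted p of 0.0543 to 0.0920) or with a replicate block (0.0854). Of 12 antigen processing genes that IRF1 and IRF2 regulate, Psmb8 and Tap2 rose by 0.20 each on the log2 scale, both missing the threshold with a replicate block (limma adjusted p = 0.0551 and 0.0678). Psmb8 also missed it without any of 4 libraries (limma adjusted p of 0.0722 to 0.0989) and Tap2 without any of 5 (limma adjusted p of 0.0701 to 0.118). Irf2bp2, an Irf2 corepressor and 1 of 3 Irf2 binding proteins, rose by 0.32 (limma adjusted p = 0.00797). The list medians were 0.16 for the other IRF genes and 0.03 for antigen processing, beside -0.03 for all tested genes. In the knockouts neither list of Irf2-linked genes had a call under limma, nor under edgeR and DESeq2 in the Prdm1 experiment. An unadjusted limma p below 0.05 was seen for 1 gene, an Irf2 binding protein in the Tcf7 experiment. There 12.6% of all tested genes had such a p.

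After loss of Prdm1, Irf5 was among the other IRF genes that rose. Irf5 averaged 572 ± 33.8 scaled reads in knockout and 282 ± 1.89 in littermate libraries (SD, n = 2 each; log2 difference 1.02, limma adjusted p = 0.0135). Epithelial markers rose with it: 7 of 9 passed, where limma called 6.84% of all tested genes. Among them was Krt8, at 1012 scaled reads in knockout and 224 in littermate libraries, while Epcam and Cdh1 did not pass. The sum of the list was 16977 to 17026 in knockout and 14002 to 14682 in littermate libraries. Macrophage markers, 7 of 8 listed, summed to 164 to 381 scaled reads in knockout and 75.5 to 92.3 in littermate libraries. The part of either cell type in the Irf5 and Batf3 results was not tested. No IRF gene beyond the members passed in the Bcl6 or Tcf7 experiment under limma, where it called 0.418% and 2.72% of all tested genes. At an unadjusted limma p below 0.05 there were 1 of 5 and 0 of 6, beside 5.84% and 12.6% of all tested genes. Without Bcl6, Irf1 had 93.1 and 67.4 FPKM, against 134 and 132 FPKM in littermates (limma adjusted p = 0.299).

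In RFP+CD160+ cells all 3 tested JUN genes rose, where 38% of all tested genes were called. Jun averaged 539 ± 136 FPKM against 239 ± 87.2 FPKM in RFP-CD160- cells (SD, n = 3 each; log2 difference 1.21, limma adjusted p = 0.0145), and Jund and Junb rose by 0.71 and 0.59. Jun missed the threshold without the first or the second RFP+CD160+ library (limma adjusted p = 0.0593 and 0.0538). Of 3 FOS genes, which compete with BATF for JUN, Fosb and Fos rose by 1.78 and 1.40. Fosl2 fell by 0.47, a call lost without the same libraries (limma adjusted p = 0.0634 and 0.0558). In Bcl6 knockout libraries Jun fell to 158 ± 34.2 FPKM, against 433 ± 61.6 FPKM in littermates (n = 2 each; log2 difference -1.46, limma adjusted p = 0.0197, or 0.0548 with no filter), and Fosb to 8.88 ± 1.03 FPKM, against 26.0 ± 0.289 FPKM (log2 difference -1.45, limma adjusted p = 0.00747). Each was 1 of 3 tested in its list, and the list medians were -0.52 for JUN and -0.65 for FOS genes, beside 0.03 for all tested genes. Among all tested genes limma called 0.418% in the Bcl6 and 2.72% in the Tcf7 experiment. In the Prdm1 experiment limma called 6.84%, with 20.6% at an unadjusted p below 0.05. There edgeR called 772 and DESeq2 1184 of 10969 genes. No JUN or FOS gene passed under limma after loss of Prdm1 (1 and 2 at an unadjusted p below 0.05; 0 by edgeR and 3 by DESeq2), and only Fosl2 passed after loss of Tcf7 (log2 difference 0.20, limma adjusted p = 0.0449), a call lost without either knockout library (limma adjusted p = 0.254 and 0.402) or the first littermate library (limma adjusted p = 0.0675) and with totals rescaled (0.0581).

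**Figure D5:**
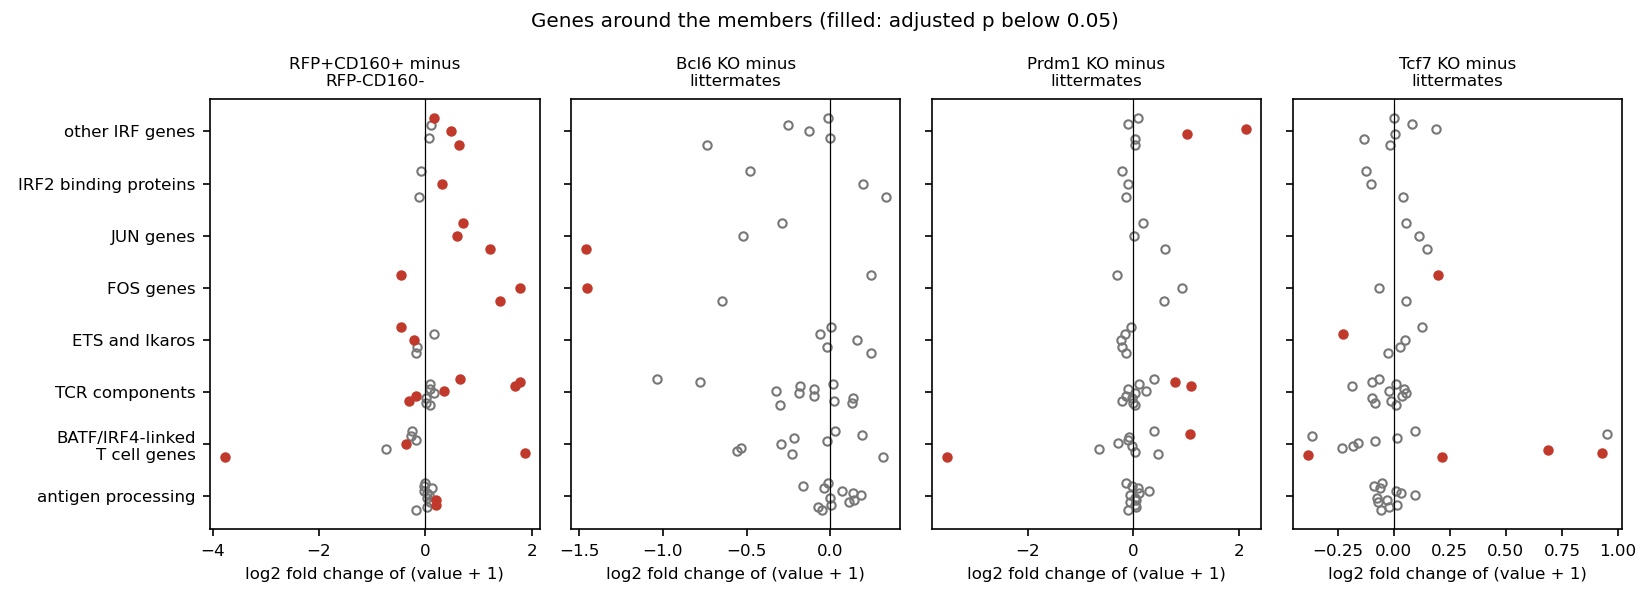
Log2 fold changes of value + 1 for the genes of 8 lists around the members (rows) in each comparison (panels, each with its own axis); filled points have a limma adjusted p below 0.05. The filled JUN and FOS points lie to the right of 0 in the sorted comparison, apart from Fosl2, and to the left in the Bcl6 experiment.

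Genes of T cell receptor signalling, a list that includes the transcription factor genes Myc and Egr2, showed 4 of 12 higher and 2 lower in RFP+CD160+ cells. Limma called 38% of all tested genes there, so the count is near the background. Nfkb1 averaged 36.4 ± 2.05 FPKM in RFP+CD160+ and 10.7 ± 0.312 FPKM in RFP-CD160- cells (SD, n = 3 each; log2 difference 1.67, limma adjusted p = 9.45e-07), and Myc 50.4 ± 7.16 and 14.1 ± 2.45 FPKM (log2 difference 1.78, limma adjusted p = 4.02e-05). Egr2 rose by 0.64, a call lost without the first or the second RFP+CD160+ library (limma adjusted p = 0.0867 and 0.0832), and the kinase gene Zap70 fell by 0.31. With library totals rescaled, 10 of the 12 were called higher and none lower, and Zap70 missed the threshold (limma adjusted p = 0.0614). Rescaling also called 4471 of all 9717 tested genes, 3300 of them higher, and moved the median of all genes to 0.12. Nothing is therefore read from that count. Without rescaling the list median was 0.09, beside -0.03 for all tested genes. After loss of Prdm1 the same list gave Nfkb1 (log2 difference 1.09, limma adjusted p = 0.0111) and Myc (0.79, limma adjusted p = 0.0202), both higher. Limma called 6.84% of all tested genes there. None of the 12 passed after loss of Bcl6 or Tcf7 under limma, where it called 0.418% and 2.72% of all tested genes. At an unadjusted limma p below 0.05 there were 2 and 1, beside 5.84% and 12.6% of all tested genes.

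Of the 5 tested ETS and Ikaros partners of IRF4 and IRF8, 2 were lower in RFP+CD160+ cells, near the 38% of all tested genes called, and the list median was -0.17. Ikzf3 (Aiolos) averaged 84.6 ± 2.62 FPKM in RFP+CD160+ and 117 ± 3.06 FPKM in RFP-CD160- cells (SD, n = 3 each; log2 difference -0.46, limma adjusted p = 2.30e-04), and Ikzf1 fell by 0.22 (limma adjusted p = 0.0424). The Ikzf1 call was lost without any of 4 libraries (limma adjusted p of 0.0917 to 0.131), and with no filter, totals rescaled, quantile normalization, centring on well expressed genes or a replicate block (limma adjusted p of 0.0506 to 0.432). Ikzf2 (Helios) fell by 0.23 on the log2 scale after loss of Tcf7 (limma adjusted p = 0.0424), 1 of 5, a call lost without either knockout library (limma adjusted p = 0.422 and 0.101) or the second littermate library (limma adjusted p = 0.0592) and with quantile normalization (0.0594). None passed in the other knockouts, also at an unadjusted p below 0.05 or by edgeR and DESeq2 in the Prdm1 experiment. Among T cell genes that BATF and IRF4 are known to regulate, Ctla4 averaged 1880 ± 2.16 scaled reads in Tcf7 knockout and 1171 ± 97.0 in littermate libraries (SD, n = 2 each; log2 difference 0.69, limma adjusted p = 3.43e-04), and Maf 431 ± 26.2 and 230 ± 61.2 (log2 difference 0.93, limma adjusted p = 0.0166; 0.0924 without the first knockout library). Prdm1 rose by 0.22 (limma adjusted p = 0.0451; 0.328 and 0.285 without the first and the second knockout library, 0.0750 with no filter, 0.0602 with totals rescaled and 0.0504 with quantile normalization) and Bcl6 fell by 0.38 (limma adjusted p = 0.00647) there, so 3 of 12 were higher and 1 lower, with a list median of -0.03. In Prdm1 knockout libraries Zeb2, at 333 ± 37.8 scaled reads against 157 ± 11.2 in littermates (n = 2 each; limma adjusted p = 0.0245; 0.0991 without the second knockout library), was the only gene of the 10 tested that passed besides Prdm1 itself. None of 9 passed after loss of Bcl6 under limma, with 2 at an unadjusted p below 0.05, as for 5.84% of all tested genes there. Beside these list counts, limma called 2.72% of all tested genes in the Tcf7, 6.84% in the Prdm1 and 0.418% in the Bcl6 experiment. In the sorted comparison the calls among 7 genes were Bcl6, whose locus drives the sorted reporter, higher, and Prdm1 and Tbx21, which encodes T-bet, lower. Limma called 38% of all tested genes there, so the count is near the background. Prdm1 fell by 3.76 and Tbx21 by 0.36 on the log2 scale (limma adjusted p = 1.19e-06 and 0.0273); the Tbx21 call was lost without any of 5 libraries (limma adjusted p of 0.0541 to 0.0848), with totals rescaled (log2 difference -0.20, limma adjusted p = 0.187), with quantile normalization (0.0958) and with centring on well expressed genes (0.0581).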

How the data were processed

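Bulk RNA-seq of 20 libraries was analysed. Per the submitters' processing notes, the tools were RSEM, featureCounts, Subread, Bowtie2, DESeq2 and Trim Galore 0.4.4, on mm10, with no role or order given. The sorted, LI and Bcl6 values were deposited by the authors as FPKM. The Prdm1 and Tcf7 values were deposited as a gene signal, reads divided by a size factor; all were whole multiples of 1 read (100%, tolerance 0.01), and 96.6 to 97.7% of checked FPKM values were (tolerance 0.02). In the signal values, 79.3% (Prdm1) and 69.8% (Tcf7) of those of 1 to 20 reads were even, so reads are not independent molecules. Each experiment was fitted alone with limma 3.58.1 (R 4.3.3; mean-variance trend, no covariates) on log2(value + 1). Genes needed at least 1 FPKM or 50 scaled reads in a number of libraries equal to the size of the smaller group, which left 9717, 9573, 10969 and 15210 genes in the sorted, Bcl6, Prdm1 and Tcf7 experiments. Tests were two-sided, adjusted by Benjamini-Hochberg at 0.05, and checked on simulated data. edgeR 4.0.16 and DESeq2 1.42.0 were run as alternatives on the recovered counts of the deposited Prdm1 values. Coordinates and exon lengths are from GENCODE vM21 (84.8 to 98.8% of symbols matched), promoters from RefSeq GRCm38.p6, in which 5 of the 6 members matched. Named genes are the members, the 3 closest genes to each, and called genes of 8 lists by smallest p; 2 genes that this rule names are not reported here. The members and lists were chosen with earlier results of these data known.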

Additional observations from a re-analysis of the deposited data

Results flagged for a closer look

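The LI libraries, which have no group in the labels, held 2 members above the level of every RFP-CD160- library. Batf3 was 3.42 FPKM in the first and 3.78 FPKM in the second, where the highest RFP-CD160- library had 0.872 FPKM. Irf4 was 2.28 FPKM in the first and 3.19 FPKM in the second, where the highest RFP-CD160- library had 2.20 FPKM. What the LI cells are was not tested.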

How the results depend on the processing

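The number of genes called in the sorted comparison stayed within 2706 to 4471 under every alternative, beside 3689, and 2706 to 3402 with a library left out. Its split of 1591 higher and 2098 lower turned to 3300 and 1171 once totals were rescaled; the median of all genes was then 0.12. In that comparison Irf4 was -0.071 without the second RFP-CD160- library (-0.071 to 0.31 over the libraries left out) and Irf2 was 0.048 with totals rescaled, both opposite in sign to the values reported. The labels do not say whether same-numbered libraries were paired. Deviations of such libraries correlated at -0.23, 0.00 and -0.33 in the sorted, -0.46 in the Bcl6, 0.53 in the Prdm1 and 0.06 in the Tcf7 experiment. With a replicate block the calls were 78 for Bcl6 (40 without), 2386 for Prdm1 (750) and 977 for Tcf7 (413). Crossing the numbers in the Bcl6 experiment, chosen after seeing the data, gave 452. The block added calls for Irf4 after loss of Bcl6 (limma adjusted p = 0.0213) and of Prdm1 (0.00261), for Irf8 and Irf2 after loss of Prdm1 (0.0320 and 0.0375) and for Batf3 after loss of Tcf7 (0.0223), and ended no member's call. Leaving out single libraries gave 39 to 1562 calls for Bcl6, 569 to 1255 for Prdm1 and 243 to 738 for Tcf7; the lone library of a group was then assumed to vary like the others. In the Prdm1 experiment edgeR called 772 genes and DESeq2 1184. Batf3 after loss of Prdm1 was called in 12 of 12 alternatives, at 2.06 to 4.03. Where a library was left out, the spread within its group did not enter the fit. The cause of these shifts was not tested. Count tests planned for the Tcf7 experiment were not run. Depth limits Batf3 in RFP-CD160- cells, where it rests on 5 to 23 reads, and Batf2, at 0 to 23 reads.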
